A study of Mus musculus with 9 samples.

Results

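The mouse zinc finger genes with the short names Zfp1 to Zfp99 were followed through 9 RNA sequencing libraries of medullary thymic epithelial cells (mTEC). Members were all genes whose symbol is Zfp followed by 1 or 2 digits, which gave 49 of the 23003 symbols with an entry in both pairs of libraries. Zfp36 was left out because it encodes an RNA-binding protein with another kind of finger. No measured value chose the members. For each symbol the RefSeq entry with the highest sum of normalised counts over the pair labelled WT and Aire-KO was read.

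All cells came from pooled thymi of B6 mice 4 weeks of age, sorted as CD45-negative, Ly51-low cells with high (mTEChi) or low (mTEClo) surface MHC class II. The Aire pair held mTEChi of wild-type (WT) mice and mTEChi labelled Aire-/- (the library labelled Aire-KO below). The mTEC pair held WT mTEChi and WT mTEClo from the same mice. The other 5 libraries were WT mTEChi after 0, 1.5, 3, 6 or 12 h in 1 uM actinomycin D, a drug that blocks transcription. Each group was 1 library from pooled thymi, so no comparison below has a replicate, and folds carry exact 95% intervals that cover counting error of reads only.

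Proteins of this family read DNA with chains of C2H2 fingers, each a short loop in which a pair of cysteines and a pair of histidines hold a zinc ion. Many carry an N-terminal KRAB domain that binds TRIM28, a scaffold for histone methyltransferases, HP1 proteins and the NuRD complex, and thereby silence transposable elements and other targets. Others lack KRAB and act through a SCAN domain or through their fingers alone. mTEChi are the mature cells in which Aire lets many genes of other tissues be expressed, and mTEClo hold their precursors.

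A finger starts at its first cysteine codon and ends at its last histidine codon. To show the repeated unit, the coding DNA of a finger of 63 bases, the classical spacing, is given here for 6 members that stand out below. It was taken from the mm9 transcripts of gencode vM1. In each protein it is the first finger of this spacing that the linker residues TGEKP or TGERP follow at once. Other fingers may come before it. Codons of the zinc-binding residues are in capitals.
Zfp97: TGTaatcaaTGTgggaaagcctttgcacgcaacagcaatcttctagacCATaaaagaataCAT
Zfp62: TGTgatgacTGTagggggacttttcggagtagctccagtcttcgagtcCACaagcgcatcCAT
Zfp54: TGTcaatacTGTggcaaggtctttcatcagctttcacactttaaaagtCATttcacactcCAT
Zfp30: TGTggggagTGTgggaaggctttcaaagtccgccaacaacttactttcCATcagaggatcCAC
Zfp90: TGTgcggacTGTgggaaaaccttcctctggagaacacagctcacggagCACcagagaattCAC
Zfp91: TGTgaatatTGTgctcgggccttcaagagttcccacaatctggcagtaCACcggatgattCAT
Every one of these fingers held the cysteine codons TGT, and the histidine codons were CAT or CAC, while the bases between them differed from member to member.

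Counted on the annotated coding sequences, members had 3 to 25 fingers with a median of 12. Zfp62 had 25 fingers and Zfp26 had 22. Zfp57, which protects imprinted methylation marks, had 3, while Zfp24, Zfp41 and Zfp42 had 4 each. A letter pattern for box A of the KRAB domain was found in 38 of 49 members (77.6%), against 271 of 22594 genes with a coding transcript (1.20%). The 11 members without it were Zfp2, Zfp3, Zfp11, Zfp24, Zfp35, Zfp41, Zfp42, Zfp62, Zfp64, Zfp72 and Zfp91. Zfp24, known for its part in myelination, carried a SCAN pattern instead. For Zfp72 the annotated protein began inside the domain, so its class is uncertain.

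The members lay on 14 chromosomes, 13 of them on chromosome 7 and 9 on chromosome 17. In mm9, 25 members fell into 8 groups of neighbours less than 500000 bases apart. The largest group held Zfp84, Zfp30, Zfp27, Zfp74, Zfp14 and Zfp82 between 30553571 and 30857842 on chromosome 7. Zfp54, Zfp51, Zfp53 and Zfp52 lay between 21560191 and 21699565 on chromosome 17, and Zfp58, Zfp87, Zfp65 and Zfp85 between 67591103 and 67856165 on chromosome 13. Counting did not use strand, and Zfp87 lies within the span of Zfp58, so reads of these neighbours may be shared.

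Close paralogs can also share reads. Stretches of 50 bases found in another gene's transcript made up 82.1% of Zfp97 (shared most with Zfp960), 25.2% of Zfp85 (Zfp273), 12.2% of Zfp93 (Zfp108) and 10.2% of Zfp59 (Zfp780b). In 44 of 49 members the share was under 5%, and 28 members shared none. The values of Zfp97 in particular are therefore uncertain.

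RefSeq promoters (GRCm38.p6) were found for 40 of 49 members, 51 promoters in all, each running from 250 bases before to 50 bases after a start. The ETS core CCGGAAG, searched on both strands, was found in 13 of these 51 promoters (25.5%), which belonged to 12 members. It was found in 8.86% of all 32851 promoters and in 11.6% of those of protein-coding genes. The bases before the start are shown for 3 of the members that held it there, with each motif found in capitals (the ETS core, the CCAAT box and the YY1 letters given after them, each on either strand).
Zfp53 (chr17:21488738-21488987, plus strand): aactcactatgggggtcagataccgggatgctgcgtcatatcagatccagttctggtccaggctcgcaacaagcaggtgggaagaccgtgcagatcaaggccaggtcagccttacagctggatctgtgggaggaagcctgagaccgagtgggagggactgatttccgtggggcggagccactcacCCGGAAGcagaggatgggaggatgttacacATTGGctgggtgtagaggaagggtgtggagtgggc
Zfp27 (chr7:29906105-29906354, minus strand): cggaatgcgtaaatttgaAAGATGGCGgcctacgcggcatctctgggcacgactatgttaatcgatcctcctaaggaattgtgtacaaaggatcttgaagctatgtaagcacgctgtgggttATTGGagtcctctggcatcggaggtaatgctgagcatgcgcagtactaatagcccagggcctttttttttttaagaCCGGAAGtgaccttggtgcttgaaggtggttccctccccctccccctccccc
Zfp60 (chr7:27731159-27731408, plus strand): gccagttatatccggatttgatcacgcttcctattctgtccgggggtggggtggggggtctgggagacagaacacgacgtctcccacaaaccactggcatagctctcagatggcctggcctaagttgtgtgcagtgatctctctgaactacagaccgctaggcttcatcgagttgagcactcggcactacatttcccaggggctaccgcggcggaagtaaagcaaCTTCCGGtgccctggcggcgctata
CCAAT was found in 43.1% of members' promoters and in 38.2% of protein-coding ones, and TATAAA in 7.84% and 12.6%. The YY1 letters AAGATGGCG were found in 5.88% of members' promoters and 1.83% of protein-coding ones. For the NRF1 letters GCGCATGCG the shares were 3.92% and 2.35%. The YY1 letters begin with the bases that end the ETS core, so these motifs can overlap. Across the Aire pair, the median log2 fold was -0.40 over 12 members with an ETS core and -0.49 over 27 others with a promoter. In the mTEC pair these medians were -0.23 over 12 and -0.71 over 28.

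Depth set what could be read. Summed over 30794 RefSeq entries, libraries of the pairs held 74161592 to 195444567 reads. Summed over 25537 entries, the drug series held 91610143 at 0 h and 1746825 (12 h) to 21124165 (1.5 h) after treatment. CPM are relative to these sums, so they rest on unlike totals in the pairs and the drug series. The effect of this on comparisons with the 0 h library was not tested. Treated libraries came from an ultra-low-input kit and all others from TruSeq poly-A kits, so against 0 h the kit and the drug cannot be told apart. The targeted gene Aire had 259 CPM (reads relative to the summed reads of the library) in WT of the Aire pair and 661 in its partner. It had 444 and 14.4 in mTEChi and mTEClo of the mTEC pair, and 804 at 0 h. The entry counts every annotated exon and so does not test the Aire-KO label, and since no sample is named in that table's columns, WT was taken as the numerator of the ratio in the study's code. All 6 mTEChi markers were at least 2-fold higher in mTEChi than in mTEClo, and the epithelial marker Epcam stood between 311 and 544 CPM in the 5 untreated libraries. Other epithelial markers were less even. In mTEChi and mTEClo of the mTEC pair, Krt5 stood at 647 and 4014 CPM and Krt14 at 314 and 1579. Krt8 stood there at 1554 and 1338 CPM and Cldn4 at 570 and 376.

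Levels were compared between members as CPM per kilobase of exon. Reads were found in all 5 untreated libraries for 48 of 49 members, and 42 members exceeded 1 CPM in each of the 3 untreated WT mTEChi libraries. Together the members took 390 CPM in WT of the Aire pair, 513 in its partner labelled Aire-KO, 557 in mTEChi of the mTEC pair, 559 in mTEClo and 838 at 0 h.

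Zfp7, a KRAB member, had the highest mean over the 3 untreated WT mTEChi libraries, 19.8 ± 13.7 CPM per kilobase (SD, n = 3). Its levels were 11.2 in the Aire pair, 12.7 in the mTEC pair and 35.6 at 0 h, so the high mean rested on the 0 h library. Zfp62 followed at 15.0 ± 11.9, with 4.91, 12.0 and 28.1 in the same order. Zfp91, a ubiquitin ligase that acts in noncanonical NF-kappa B signalling, was steadier, at 11.3, 13.3 and 9.62 CPM per kilobase. Zfp68 (mean 11.0 ± 6.67), Zfp24 (9.0 ± 1.43), Zfp35 (8.03 ± 2.15), Zfp51 (6.85 ± 6.09) and Zfp46 (6.29 ± 1.00) came next. Neighbours in this order overlapped in their ranges over the 3 libraries, so no step between neighbours among these 8 exceeded their spread.

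At the other end stood Zfp42, also called Rex1 and known as a marker of pluripotent stem cells. It had 0 reads in WT of the Aire pair, which allows up to 0.0288 CPM, 2 reads in the library labelled Aire-KO and 9 at 0 h. In the mTEC pair its normalised count was 33.7 in mTEChi and 68.2 in mTEClo. Too few reads in the Aire pair and the drug series left Zfp42 out of their folds. Zfp92 (mean 0.107 CPM per kilobase), Zfp78 (0.161), Zfp72 (0.330), Zfp30 (0.351), Zfp9 (0.399), Zfp14 (0.429) and Zfp2 (0.460) were the next lowest. Of these 8 low members, 5 carried the KRAB pattern (Zfp92, Zfp78, Zfp30, Zfp9 and Zfp14).

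**Figure D1:**
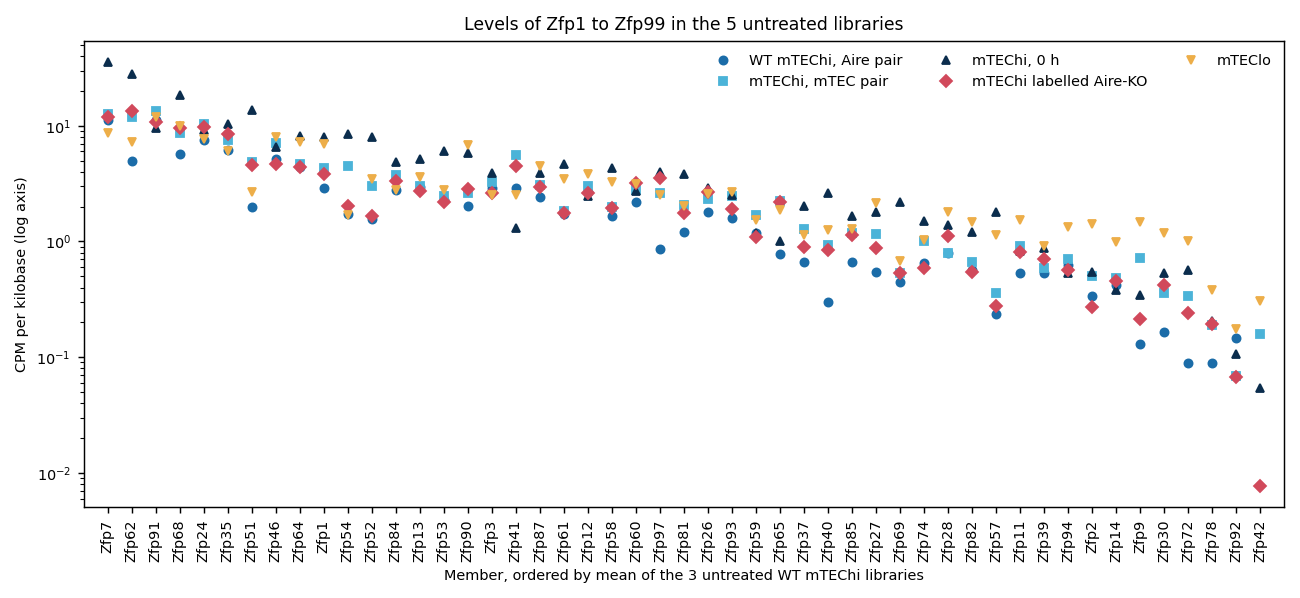
Points give the level of each of 49 members in CPM per kilobase (log axis) in the 5 untreated libraries, members being ordered by their mean in the 3 untreated WT mTEChi libraries. Levels ran from a mean of 19.8 for Zfp7 to 0.0712 for Zfp42, whose count of 0 in WT of the Aire pair is not drawn, and mTEClo lay highest for each of the 8 lowest members.

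The Aire pair asks which transcripts depend on Aire in mTEChi. Nearly all members had a lower value in WT, mostly by less than 2-fold. Of 48 members tested, 46 had a fold of WT over that library below 1, and the median fold was 0.680 (log2 -0.56). Over all 19764 symbols tested the median log2 fold was 0.06. At least 2-fold lower in WT were 9 of 48 members (18.8%), against 7.22% of all symbols. At least 2-fold higher in WT were 0 of 48 members, against 29.0% of all symbols.

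The 297 tested genes named Zfp100 to Zfp999 had a median log2 fold of -0.53, close to that of the members, with 26.9% at least 2-fold lower in WT. Among members the 38 with a KRAB pattern had a median of -0.51 and the 10 tested without one -0.64. The counting interval lay wholly below 1 for 38 of 48 members (40.6% of all symbols), above 1 for 1 member, Zfp92 (46.1% of all symbols), and held 1 for 9.

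Zfp97 had the lowest fold. Its normalised count was 268 in WT and 1281 in its partner, 4.78-fold higher in the latter (95% interval 4.17 to 5.49). Most of its sequence is shared with Zfp960, so the value may belong to both genes. Zfp40, a KRAB member, stood at 138 in WT and 455 in the other library, a 3.29-fold difference (2.70 to 4.03). Zfp65 stood at 347 and 1139, a 3.28-fold difference (2.90 to 3.72). Zfp62, with its 25 fingers, was the member with most reads in this group, with a normalised count of 2232 in WT and 7133 in its partner, or 3.20-fold (3.04 to 3.36).

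Smaller counts lay behind Zfp30 (48.7 against 144 normalised counts) and Zfp78 (47.6 against 122). Their folds toward the library labelled Aire-KO were 2.97 (2.12 to 4.23) and 2.57 (1.81 to 3.70). Zfp51 stood at 582 and 1579, 2.71-fold apart (2.46 to 3.00). Zfp85, Zfp68 and Zfp9 followed with folds of WT over the other library of 0.499, 0.511 and 0.512. Zfp72, with 15 reads in WT and 56 in the other library, was also more than 2-fold lower (fold 0.313).

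At the top of the order, Zfp2 had a normalised count of 118 in WT and 112 in its partner, a fold of 1.05 whose interval of 0.805 to 1.38 holds 1. Zfp46 (0.951), Zfp3 (0.942), Zfp94 (0.941), Zfp74 (0.931), Zfp13 (0.928), Zfp59 (0.909), Zfp91 (0.894), Zfp53 (0.892) and Zfp82 (0.891) were close to 1. The one member whose interval lay above 1, Zfp92, was at 94.1 against 50.9 normalised counts (fold 1.85, 1.30 to 2.64). Zfp57 stood at 72.4 and 98.0, and its interval (0.536 to 1.01) held 1. Zfp24 and Zfp35, which lie side by side, had folds of 0.663 and 0.623, and Zfp64, an activator of transcription, and Zfp90 had 0.856 and 0.609.

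The other untreated WT mTEChi libraries did not side with this WT library. In CPM, mTEChi of the mTEC pair was closer to KO-labelled cells than to WT for 34 of 48 members, the 0 h library for 35, and both for 30 (62.5%, against 24.9% of all symbols). The KO-labelled value was above WT in CPM for 35 of 48 members and 34.6% of all symbols. Any library above both is nearer to it, so the contrast in these shares follows in part from the fold of the pair. WT of the Aire pair had the lowest CPM of the 3 untreated WT libraries for 41 of 48 members (85.4%), against 38.4% of all symbols. The library labelled Aire-KO exceeded all 3 WT libraries only for Zfp60 (12.9 CPM against 8.87, 11.4 and 11.1), and lay below all 3 for 10 members. In CPM the members' median log2 fold was -0.33 with the lone WT library and 0.33 with the mean of the 3 WT libraries, against -0.56 on the deposited scale. With the mean of 3, 0 members were at least 2-fold lower (1.36% of all symbols) and 3 of 48 at least 2-fold higher (32.7% of all symbols), namely Zfp52, Zfp54 and Zfp57. These were named after their values were seen, and the 0 h value of Zfp57 came from another RefSeq entry.

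Zfp62 shows this plainly. In CPM it stood at 19.8 in WT of the Aire pair, 53.9 in its partner, 48.3 in the mTEChi library sequenced beside mTEClo, and 113 at 0 h. Zfp97 stood at 2.38, 9.69, 7.22 and 11.0 in the same order, and Zfp40 at 1.23, 3.44, 3.78 and 10.6. For these members the WT library of the Aire pair was the lowest and the library labelled Aire-KO fell among or beside the other WT libraries. Zfp65, at 3.08, 8.62, 8.83 and 4.01, differed in that the 0 h library sided with WT.

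**Figure D2:**
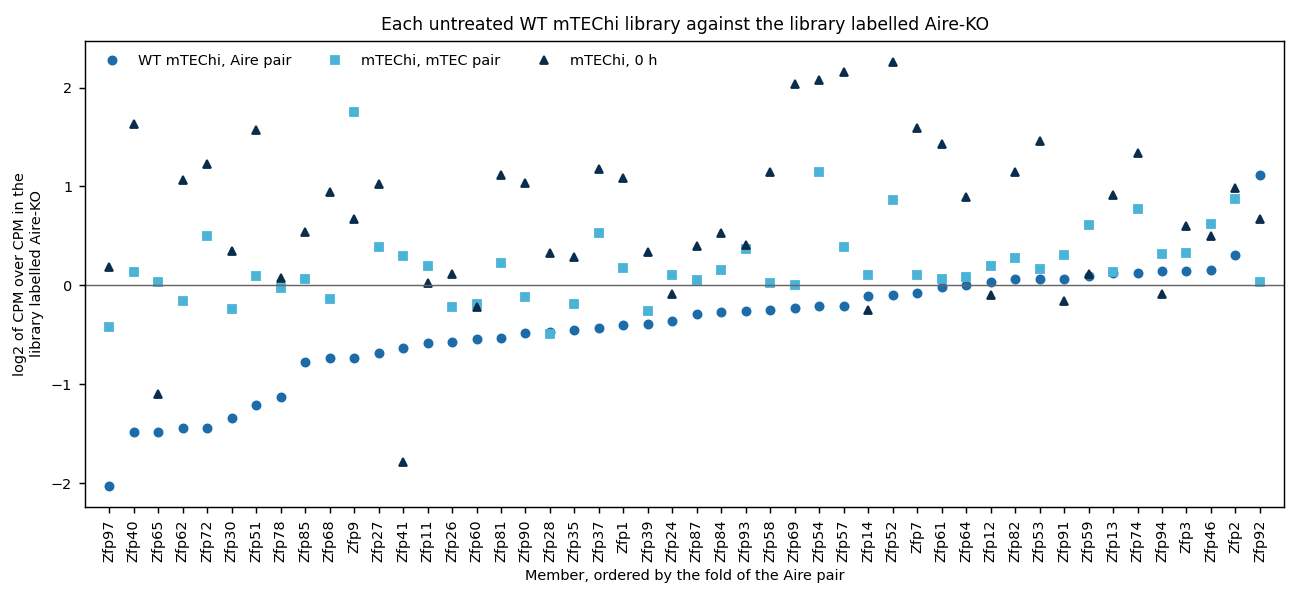
Points give the log2 ratio of CPM in each untreated WT mTEChi library over CPM in the library labelled Aire-KO for 48 members, ordered by the fold of the Aire pair. The WT library of the pair is the lowest of 3 for 41 members, and the 0 h library is the highest for 35.

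The scale mattered for the count of members on each side of 1. With equal totals (CPM) in place of the deposited size factors, the median over all symbols moved from a log2 fold of 0.06 to 0.29. Members with a fold below 1 went from 46 to 35 of 48 (47.3% and 34.6% of all symbols). Those past 2-fold went from 9 lower and 0 higher to 8 lower and 1 higher. With equal totals, 4.36% of all symbols were at least 2-fold lower and 32.0% higher. Relative to the median of all symbols, members stood at -0.62 on the log2 scale under either scaling and at -0.09 against the mean of the 3 WT libraries.

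When the library labelled Aire-KO was set against the 3 untreated WT mTEChi libraries in edgeR, with a spread estimated between the WT libraries, no member was called. Of 49 members tested, 0 were called higher (background 0.0810% of entries) and 0 lower (8.21%) at an adjusted p of 0.05, 0 had an unadjusted p under 0.05 in either direction, and DESeq2 also called 0. The lowest adjusted p in edgeR was 0.532, for Zfp65, with a log2 change of 0.97 toward the library labelled Aire-KO. The fit assumes that the lone library varies like the WT ones.

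Genes of the TRIM28 corepressor machinery were also mostly lower in WT in this pair. Over 30 of 31 listed genes with an entry, the median log2 fold of WT over the library labelled Aire-KO was -0.48, and 27 of 30 lay below 1, against 47.3% of all symbols. In edgeR against the 3 WT libraries their median log2 change was 0.02. Trim28 itself had a fold of 0.52 and Atrx, a chromatin remodeller, 0.50, while the NuRD subunits Chd4 and Chd3 had 0.88 and 0.66. Rbbp7, a histone-binding subunit, stood at 1.29 and the H3K9 methyltransferase Ehmt2 at 0.91. At least 2-fold lower were 3 of 30 (Uhrf1, Cbx3 and Atrx, the first pair named after their values were seen; 7.22% of all symbols), and edgeR against the 3 WT libraries called 0 of 29 tested.

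Other lists also differed between these libraries. The 15 cell cycle genes summed to 306 CPM in WT and 507 in its partner, with 8 of 15 at least 2-fold lower in WT. They summed to 686 in mTEChi of the mTEC pair and 1079 at 0 h, the order that the members' sum had over these 4 libraries. The sums of the TRIM28 corepressor list and of the genes named Zfp100 to Zfp999 had that order too. In mTEClo the cell cycle genes had their lowest sum of the untreated libraries, 240 CPM, while the members summed to 559. Dendritic cell and macrophage markers summed to 634 CPM in WT against 348, mostly from Lyz2 (574 and 336), and all 5 had a fold above 1. Endothelial markers summed to 55.3 and 24.7, with all 6 above 1. Fibroblast markers summed to 107 and 178, with 5 of 7 below 1, while Col1a1 (2.13) and Pdgfra (1.34) went the other way. Thymocyte markers summed to 28.4 and 20.9, with 5 of 6 above 1 and Rag1 at 0.70. None of these markers was at 0 in either library, and their part in the members' folds was not tested. In bulk libraries, fewer cells of a type and less RNA per cell cannot be told apart.

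The mTEC pair asks how mTEChi and mTEClo differ. Of the members past 2-fold, those lower in mTEChi were mostly of low level and those higher were among the more abundant. Over all 49 members the median fold of mTEChi over mTEClo was 0.794 (log2 -0.33), against a log2 median of 0.01 over 21848 symbols. At least 2-fold lower in mTEChi were 12 of 49 members (24.5%), against 21.2% of all symbols, a share close to the background. At least 2-fold higher were 2 of 49 (4.08%), against 19.2%.

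Zfp54, a KRAB member of the chromosome 17 group, had a normalised count of 1328 in mTEChi and 531 in mTEClo, 2.50-fold higher in mTEChi (95% interval 2.22 to 2.82). Zfp41, which lacks the KRAB pattern, had 2430 and 1168, a fold of 2.08 (1.92 to 2.26). These were the members past 2-fold toward mTEChi. Zfp51 (1493 and 855) had a fold of 1.75 (1.59 to 1.92) and Zfp62 (5678 and 3591) 1.58 (1.51 to 1.66). Zfp7 (1.41), Zfp24 (1.28), Zfp84 (1.27), Zfp3 (1.22), Zfp35 (1.18) and Zfp65 (1.13) followed.

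The untreated WT mTEChi libraries differed among themselves by as much for some of these. Zfp41 stood at 20.7 CPM in mTEChi of the mTEC pair, but at 10.8 in WT of the Aire pair and 4.87 at 0 h, around the 9.47 CPM of mTEClo. Zfp54 stood at 11.3, 4.42 and 21.6 CPM in these mTEChi libraries and 4.30 in mTEClo, which was below all 3. Zfp7, at 35.0, 30.9 and 98.0, was also above mTEClo (23.7) in every one. Zfp3 and Zfp35 were the other members for which mTEClo lay below all 3 WT mTEChi libraries, making 4 of 48 (8.33%, against 39.5% of all symbols).

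Toward mTEClo, Zfp30 had the lowest fold, with a normalised count of 109 in mTEChi against 378 in mTEClo, 3.47-fold higher in mTEClo (2.84 to 4.25). Zfp57 followed with 114 and 381, a 3.36-fold difference (2.76 to 4.09), and Zfp72 with 64.9 and 203, 3.13-fold (2.39 to 4.09). The fold of Zfp57 rests on a non-coding RefSeq entry, 1 of 4 entries of the gene. Through its coding entry NM_001013745, the log2 change of mTEClo against the 3 untreated WT mTEChi libraries in edgeR was 1.08. Zfp2, without a KRAB pattern, had 182 and 537 (2.95-fold, 2.52 to 3.46). Zfp90 was the best covered of this set, with a normalised count of 816 against 2200, or 2.70-fold (2.50 to 2.91). Zfp92 (fold of mTEChi over mTEClo 0.376), Zfp28 (0.420), Zfp82 (0.429), Zfp14 (0.465), Zfp9 (0.471), Zfp78 (0.477) and Zfp42 (0.493) completed the members past 2-fold.

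In CPM, mTEClo lay above all 3 untreated WT mTEChi libraries for 19 of 48 members (39.6%), against 23.2% of all symbols. Zfp2 stood at 4.36 CPM in mTEClo against 1.04, 1.55 and 1.67 in the WT mTEChi libraries. Zfp30 stood at 3.06 against 0.431, 0.926 and 1.39, and Zfp90 at 17.8 against 5.37, 6.95 and 15.4. The groups did not overlap for these 3 members. For Zfp57 they did, since the 0 h library, read there through another RefSeq entry of the gene (NM_001013745), stood at 3.31 CPM against 3.09 in mTEClo.

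**Figure D3:**
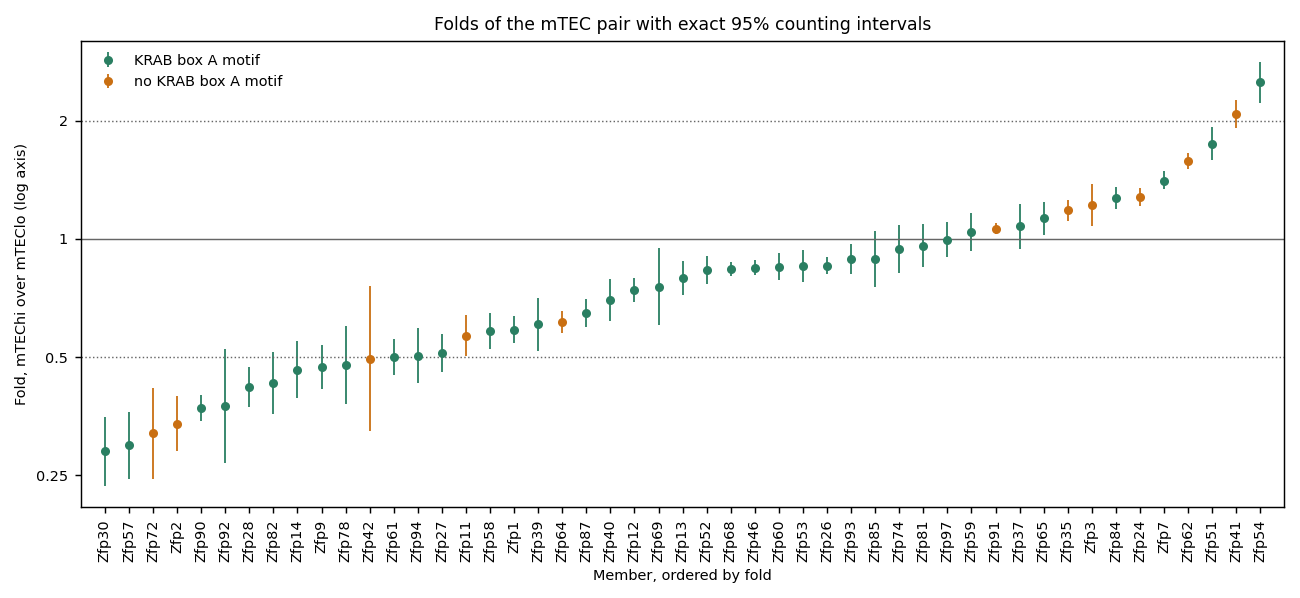
Points give the fold of mTEChi over mTEClo (log axis) for 49 members in order, with exact 95% counting intervals, coloured by the KRAB pattern, and dotted lines mark 2-fold. Zfp54 and Zfp41 lie above the upper line at 2.50 and 2.08, and 12 members from Zfp30 (0.288) to Zfp42 (0.493) lie below the lower one.

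Neighbours did not share a direction in every group. In the chromosome 7 group, Zfp30 (0.288), Zfp82 (0.429) and Zfp14 (0.465) were more than 2-fold lower in mTEChi and Zfp27 stood at 0.512, while Zfp74 was at 0.940 and Zfp84 at 1.27. Zfp78 and its neighbour Zfp28 were both more than 2-fold lower (0.477 and 0.420). In the chromosome 17 group, Zfp54 and Zfp51 were higher in mTEChi, but Zfp52 (0.833) and Zfp53 (0.853) were lower.

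The split by level was drawn from the mean CPM over all 9 libraries. Among the 24 members of lower mean, at 0.106 to 6.71 CPM, 11 (45.8%) were at least 2-fold lower in mTEChi and 0 were 2-fold higher. Of all 6715 symbols in that range, 22.2% were 2-fold lower and 27.3% higher. Among the 25 of higher mean, at 6.75 to 60.4 CPM, 1 (Zfp90) was 2-fold lower and 2 were higher, against 10.2% and 16.2% of 8851 symbols. In the Aire pair the members of lower mean made up 7 of the 9 past 2-fold toward lower WT values, and Zfp51 and Zfp62 were of higher mean. The median log2 fold was -0.67 for those of lower mean and -0.50 for those of higher mean, against 1.42 and -0.10 over all symbols of the same ranges.

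**Figure D4:**
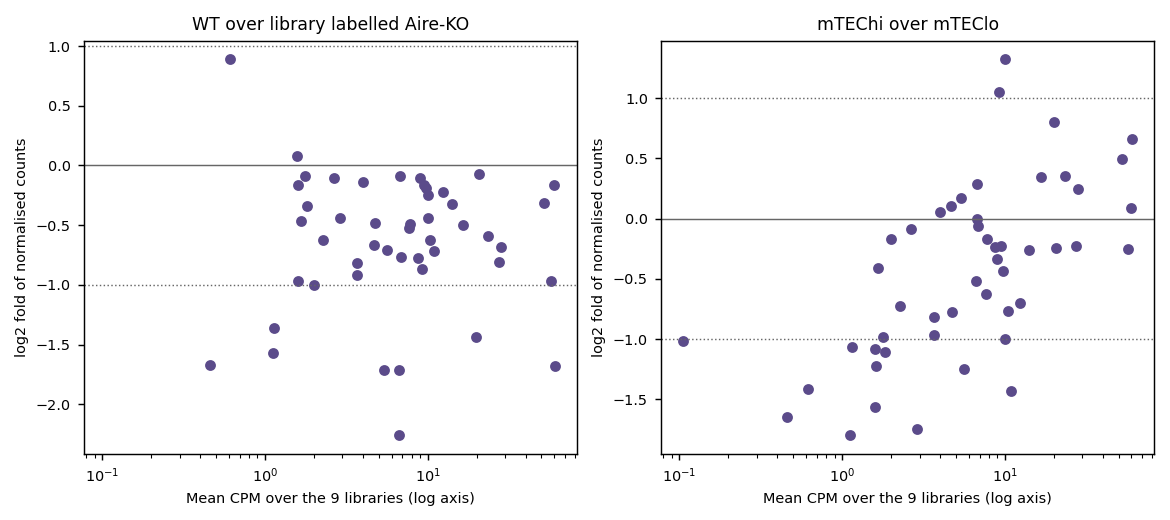
Each point is 1 member, with its mean CPM over the 9 libraries (log axis) against its log2 fold in the Aire pair on the left (48 members) and the mTEC pair on the right (49 members), and dotted lines mark 2-fold. On the right, 11 of the 12 points past 2-fold toward mTEClo lie at a mean below 6.71 CPM.

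KRAB members and the others differed in median in the mTEC pair, at a log2 fold of -0.37 over 38 and 0.09 over 11. Across members, the folds of the 2 pairs, which share no library, had a Pearson correlation of -0.11 over 48 members (Spearman -0.08), given as a description. The number of fingers had a Pearson correlation of -0.24 with the log2 fold of the Aire pair and 0.16 with that of the mTEC pair.

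Against the 3 untreated WT mTEChi libraries, edgeR called 0 of 49 members higher in mTEClo (background 1.44% of entries) and 0 lower (1.90%). The members' median log2 change toward mTEClo was 0.44 in edgeR, against -0.05 over all entries, and DESeq2 called 0 members. The lowest adjusted p in edgeR was 0.105, for Zfp2, with a log2 change of 1.77 toward mTEClo. Without the 0 h library 1 member, Zfp90, was called higher, with a log2 change of 1.62 and an adjusted p of 0.0396 in edgeR, where 4.15% of all entries were called higher.

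Fibroblast and endothelial markers were higher in the mTEClo library, and dendritic cell and macrophage markers were lower. Fibroblast markers summed to 939 CPM in mTEClo and 92.6 in mTEChi of the pair, with 6 of 7 at least 2-fold higher in mTEClo. Endothelial markers summed to 225 and 35.4 (6 of 6), while dendritic cell and macrophage markers summed to 63.1 and 515, and thymocyte markers to 28.6 and 29.2. Lyz2 (50.7 and 464 CPM) made up most of the dendritic cell and macrophage sums. Of that list 4 of 5 were at least 2-fold higher in mTEChi, and Itgax was level at 2.18 and 2.27 CPM. Of the thymocyte markers 5 of 6 were higher in mTEClo, and Cd4, at 3.83 CPM in mTEClo and 16.9 in mTEChi, went the other way. No marker of these lists was at 0 in either library. Cell cycle genes summed to 240 CPM in mTEClo and 686 in mTEChi, with 11 of 15 at least 2-fold higher in mTEChi. The part of these in the members' folds was not tested.

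The TRIM28 corepressor list stood slightly toward mTEChi, with a median log2 fold of 0.27 and 19 of 30 genes above 1. Trim28 was at 1.19, Chd4 at 1.00, Chd3 at 1.32, Atrx at 1.30, Ehmt2 at 0.84 and Rbbp7 at 1.81. Those past 2-fold were Uhrf1 (6.22), which guides DNA methylation at replication, and the H3K9 methyltransferase Suv39h2 (3.17), both named after their values were seen.

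The actinomycin D series asks how long transcripts last once transcription is blocked. All values here are CPM, so they give a transcript's share of the reads left at each time and not its amount. At 3 h, 23.1% of all symbols were at least 2-fold lower in CPM and 8.60% higher. Aire, at 804 CPM at 0 h and 3211 at 3 h, was among the latter. Relative to 0 h, most members stood lower after 1.5 and 3 h, further than the median of all symbols. For 48 members the median log2 change over the 4 times, in order, was -0.50, -0.59, -0.67 and -1.10. Over 18460 symbols it was -0.14, -0.21, -0.56 and -0.60. For the genes named Zfp100 to Zfp999 it was -0.43, -0.22, -0.96 and -1.25.

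At 1.5 h, 8 of 48 members (16.7%) were at least 2-fold lower than at 0 h, against 5.75% of all symbols, and 0 were 2-fold higher (1.81%). By 3 h these counts were 16 lower (33.3%, background 23.1%) and 2 higher (background 8.60%). They were 21 lower (background 41.1%) and 6 higher (12.9%) at 6 h, and 27 lower (41.1%) and 4 higher (12.2%) at 12 h. Shares at 6 h were close to the background. With libraries at 0 reads set to 3 reads, 22 members (45.8%) were 2-fold lower at 12 h in place of 27, against 22.7% of all symbols. Under that rule the median log2 change at 12 h was -0.76 for members and -0.06 for all symbols. At 6 h 43.8% of members and 33.1% of all symbols were then 2-fold lower, with medians of -0.67 and -0.34, and at 3 h the medians were -0.59 and -0.14.

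Zfp69, a KRAB member, fell early. Its level went from 5.14 CPM at 0 h to 1.33 and 1.15 at 1.5 and 3 h, then 0 reads and 2.29 CPM, and its fold at 3 h was 0.223 (0.126 to 0.366). Zfp64 stood at 22.6, 16, 7.74, 3.01 and 4.58 CPM over the series, with a fold at 3 h of 0.343 (0.280 to 0.416). Both stayed below their 0 h level at every time. Zfp46 behaved likewise, at 30.4, 12.6, 12.2, 10.8 and 3.43 CPM. With Zfp72, these 3 were the members whose log2 ratios were at least 2-fold lower at 3, 6 and 12 h alike. Zfp72 had 84 reads at 0 h, 10 at 1.5 h and 0 later. Its 0 h level of 0.917 CPM lies below the 12 h limit of 1.72 CPM, so no fold can be given for it at 12 h.

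Others fell and came back. Zfp1 stood at 15.0 CPM at 0 h, 9.70 at 1.5 h and 5.16 at 3 h, but at 22.8 at 6 h. Zfp60 stood at 11.1, 8.99 and 2.65, then at 0 reads at 6 h and 9.73 CPM at 12 h. Zfp94, with 130 reads at 0 h, had 31, 2, 30 and 3 reads at the later times. These members did not fall steadily. Zfp30 went from 127 reads at 0 h to 8, 0, 0 and 5, at least 6.45-fold lower at 3 h when 0 is set to 3 reads. Zfp65 and Zfp11 had log2 changes of -1.54 and -1.47 at 3 h.

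Few members stood higher at 3 h. Zfp14 went from 1.33 CPM at 0 h through 2.04 to 4.87 at 3 h (3.66-fold, 2.68 to 4.96), then 0 reads at 6 and 12 h. Zfp92, on 56 reads at 0 h and 23 at 3 h, was the other member past 2-fold. Zfp28 had a log2 change of 0.88 and Zfp13 of 0.46, while Zfp26 (0.18), Zfp82 (0.18), Zfp91 (0.15), Zfp3 (0.08) and Zfp61 (0.01) were near their 0 h level.

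Zfp91, Zfp62 and Zfp68, among the best covered members, stayed within 2-fold of 0 h until 6 h. Zfp91 stood at 54.0 CPM at 0 h and 46.7, 59.8, 76.9 and 37.2 at the later times. Zfp62 stood at 113, 73.5, 80.7, 74.2 and 50.9 CPM, and Zfp68 at 87.4, 63.0, 83.3, 52.1 and 65.8. Zfp24 stood at 28.5, 18.6, 13.0, 18.2 and 23.5. Of these, only Zfp24 was more than 2-fold below 0 h at 3 h, with a fold of 0.455 (0.389 to 0.530).

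Zero counts became common at 6 h. The 6 h library had 0 reads for 16 of 48 members (33.3%, against 27.7% of all symbols), of which 14 had reads at 3 h and 8 had reads again at 12 h, in a library of fewer reads. These 16 had 56 to 1018 reads at 0 h, with a median of 325. Zfp60, Zfp97 and Zfp58 were at least 41.8, 41.5 and 38.6-fold lower at 6 h by the limit of 3 reads, yet Zfp60 and Zfp97 had 17 and 18 reads at 12 h. At 12 h the limit of 3 reads is 1.72 CPM, above the 0 h level of 5 of the 9 members with 0 reads there, so no fold can be given for those.

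**Figure D5:**
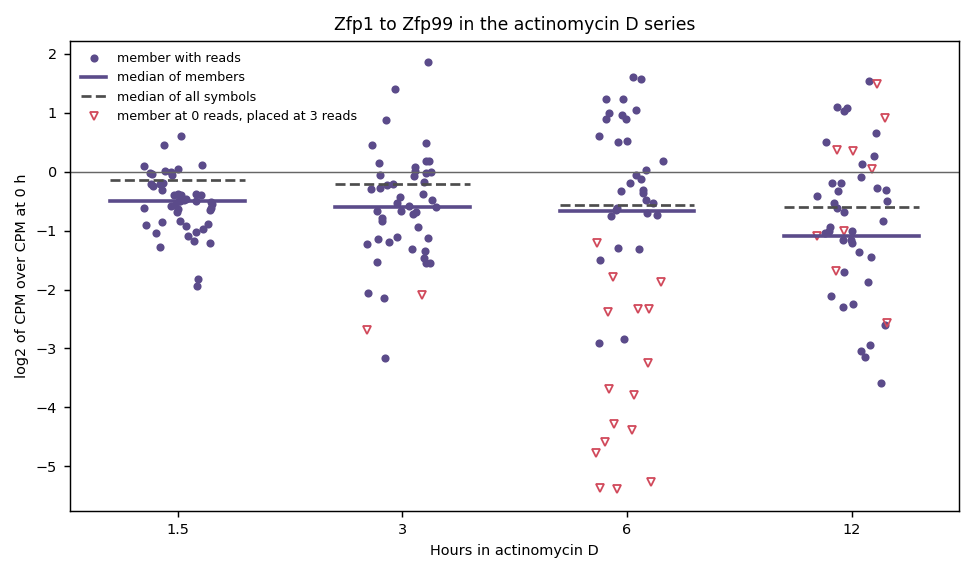
Each point is 1 of 48 members at 1.5, 3, 6 or 12 h in actinomycin D, as the log2 ratio of its CPM over that at 0 h, with open triangles for members at 0 reads placed at 3 reads, solid lines for the median of members and dashed lines for that of all symbols, both without that limit. Members' medians lie below those of all symbols at each time, by the least at 6 h, where 16 members are at 0 reads.

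The choice of reference changed these medians. Taking 1.5 h as the reference, so that both libraries were treated and made with the same kit, the members' median log2 change was 0.11 at 3 h, -0.10 at 6 h and -0.67 at 12 h, against -0.08, -0.38 and -0.42 over all symbols. With the mean CPM of the 3 untreated WT libraries as the reference, the members' medians at the 4 times were 0.03, -0.02, -0.45 and -0.56. Over all symbols they were -0.06, -0.21, -0.59 and -0.59, so with this reference members lay above all symbols at each time. The 0 h library held the highest level of members among the untreated libraries, which is the reference of the changes above.

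In all, 23 of 48 members (47.9%) were below 0 h at all 4 times, against 28.7% of all symbols, and 0 were above it at all 4. A slope over hours fitted to the 4 treated libraries in edgeR called 0 of 44 members tested in either direction, and it called 0 of 20652 entries higher (background 0%) and 0 lower (background 0%). No member had an unadjusted p under 0.05, the lowest adjusted p in edgeR was 0.588 (Zfp58), and DESeq2 called 0 members, with 44 of 48 left without an adjusted p, and 257 of 24299 entries higher and 143 lower. The 38 KRAB members had median log2 changes of -0.50, -0.48, -0.74 and -1.10 at the 4 times. For the 10 others tested they were -0.56, -0.98, -0.05 and -0.84, so the lower group changed between times. The TRIM28 corepressor list stood at -0.36, -0.31, -0.32 and -0.56 at the 4 times, and cell cycle genes at -0.72, -0.96, -0.71 and -0.58.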

How the data were processed

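Sequencing of RNA from sorted mTEC gave 9 libraries, 1 per group by the labels. The submitters' processing notes name CASAVA, Bowtie 1.0.0, bedtools and DESeq, with the mm9 build. For the drug series the authors deposited raw counts per RefSeq entry. For the pairs they deposited a signal, the count over a DESeq size factor (normalised count), from which whole reads were recovered (100% of values whole within 0.1). The authors' own fold and p-value columns were not used. Of 30930 entries, 710 had no symbol. Zfp24, Zfp65 and Zfp85 were placed through older names. Zfp57 was read through a non-coding RefSeq entry in the pairs and through another entry in the drug series and the fits.

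Members, lists and rules were chosen with earlier results of these data known, and the KRAB pattern with the members' sequences in view. Folds needed 10 normalised counts over a pair or 10 reads over the drug series, whose log2 ratios used CPM after adding reads in proportion to library size (0.5 on average, 1.64 at 0 h and 0.0313 at 12 h). Limits for a count of 0 used 3 reads. The text names, for each pair, the 10 members furthest in each direction among those with at least 100 normalised counts in 1 library, the 8 largest and 8 smallest changes at 3 h among members with 100 reads at 0 h, the 8 highest and 8 lowest levels, called members, members of known role, cluster neighbours and the 6 corepressor genes of highest mean. Fits used edgeR 4.0.16 (quasi-likelihood, TMM; 2 residual degrees of freedom) and DESeq2 1.42.0 in R 4.3.3, with Benjamini-Hochberg adjustment over all entries, and were tested on simulated data. PCR reads are not independent molecules, so intervals and limits cover counting error alone.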

Additional observations from a re-analysis of the deposited data

How the results depend on the processing

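Medians and counts of members past 2-fold were recomputed under each alternative. In the Aire pair, equal totals (CPM) gave 1 member at least 2-fold higher in WT in place of 0 (2.08%, against 32.0% of all symbols). The mean CPM of 3 untreated WT libraries changes the scale as well as the reference. It reversed the median log2 fold to 0.33 (-0.33 with equal totals alone), with 0 members lower (1.36% of all symbols) and 3 higher (32.7%). In the mTEC pair the same reference gave 4 members higher in mTEChi in place of 2 (8.16%, against 21.5% of all symbols). At 1.5 h in actinomycin D, TMM factors gave 5 members lower in place of 8 (10.4%, against 4.47% of all symbols). These factors moved the median of all symbols from -0.14 to -0.02 at 1.5 h and from -0.60 to -0.40 at 12 h. At 1.5 h the mean of 3 WT libraries reversed the median log2 change to 0.03 (0.0255). With it 3 members were lower (6.25%, against 12.3% of all symbols). At 3 h that reference gave 4 members higher in place of 2 (8.33%, against 12.8% of all symbols). With 1.5 h as reference, chosen after seeing the data, the median at 3 h reversed to 0.11. At 3 h, 7 members were then lower in place of 16 (14.6%, against 18.5% of all symbols). At 6 h, 10 members were higher in place of 6 (20.8%, against 12.9%). Leaving out 1 library at a time, members called ranged from 0 to 1 (higher in mTEClo) and stayed at 0 in the Aire-KO and slope fits, although over all entries the slope fit called 718 higher and 1156 lower without the 6 h library, 87 and 518 without the 12 h library, and 0 without the 1.5 h or the 3 h library. The cause of these changes was not tested. No other alternative moved a count past 1.5 times or a median past the spread of 0.59 between the 3 WT libraries.

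No paired analysis was possible because each group held 1 library. Depth limited the 12 h library most, where 3 reads amount to 1.72 CPM, above the level of many members. Folds rest on 1 library per group, so that differences between pools of mice and between conditions cannot be told apart.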
